A study of Mus musculus with 6 samples.

Results

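The genes described here are 28 genes of cholesterol synthesis and of its control by the transcription factor SREBP2, taken by gene symbol from a deposited table of 27240 genes. They hold 8 genes of the mevalonate and isoprenoid steps, 12 of the steps from farnesyl groups to cholesterol, 6 of the machinery that controls SREBP2, and Stard4 and Vldlr, which act in sterol transport and lipoprotein uptake. All 28 were found in the table and all 28 passed the filter on low counts, which kept 16239 genes. Some genes of the pathway are not analysed here. The members lie on 14 chromosomes, with Ebp, Nsdhl and Mbtps2 on the X chromosome.

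Poly(A) RNA of mouse primary peritoneal macrophages, phagocytes of the abdominal cavity, was sequenced in 6 paired-end libraries. Of these, 3 carry the genotype label WT (wild type) and 3 the label KO (knockout), and all 6 carry the treatment label oxLDL, oxidised low-density lipoprotein, a modified cholesterol-rich particle. The series title names the kinases DCLK1 and IKKβ, but the genotype label names no gene, and the strain, age, sex, deleted part, Cre driver, and dose and duration of oxLDL are not stated in the labels. No library without oxLDL was analysed here, so each difference is between genotypes under oxLDL. Whether libraries of a group are separate animals, cultures or repeat preparations is not in the labels, so each p-value reflects the spread among these libraries alone, and that spread may be technical.

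Cells build cholesterol from acetyl groups through mevalonate, isoprenoid chains, squalene and lanosterol, and branches of the same route supply the lipid anchors of many signalling proteins. SREBP2, encoded by Srebf2, is made as an inactive precursor in the endoplasmic reticulum membrane, bound to the escort protein SCAP. When membrane sterol is low, SCAP carries it to the Golgi, where a pair of proteases release a fragment that enters the nucleus and switches on most genes of the route, while INSIG proteins hold the complex back when sterol is high. In macrophages, lipoprotein cholesterol freed in lysosomes and oxysterols act on this switch. The amount of active SREBP2 is set largely by this processing, which mRNA levels do not measure.

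Promoter windows from RefSeq (GRCm38.p6), reaching from 250 bases before to 50 after each start site, were matched for 24 of the 28 members, in 31 windows. The shorter sterol regulatory element TCACNCCA, a form of the element that SREBPs bind, was found on either strand in the windows of Hmgcs1, Srebf2 and Msmo1. These are 3 of 31 member windows (9.68%), against 4.36% of all 32851 windows. Counted by gene they are 3 of 24 members (12.5%). The share was 4.97% of all genes with a window and 4.58% of those that passed the filter on counts. The longer form TCACNCCAC, which contains the shorter one, was found in the Hmgcs1 window alone among the members, and in 1.24% of all windows. The following stretches run from 232 to 90 bases before the start site and are shown for an enzyme gene and the transcription factor's own gene, which both hold a sterol element, and for Insig1, the member with the smallest p between genotypes. Capitals mark matches, on either strand, to the sterol element, the CCAAT box (CCAAT, read ATTGG on the other strand), the GC box (GGGCGG) or the E-box (CACGTG).
Hmgcs1, chr13:119690119-119690261, plus strand: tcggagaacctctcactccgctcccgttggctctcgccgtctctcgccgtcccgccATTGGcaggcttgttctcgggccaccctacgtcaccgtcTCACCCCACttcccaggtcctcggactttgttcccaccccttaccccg
Srebf2, chr15:82147037-82147179, plus strand: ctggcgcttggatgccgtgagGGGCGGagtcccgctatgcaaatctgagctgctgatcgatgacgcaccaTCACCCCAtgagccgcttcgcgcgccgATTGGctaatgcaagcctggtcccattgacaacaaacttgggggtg
Insig1, chr5:28071180-28071322, plus strand: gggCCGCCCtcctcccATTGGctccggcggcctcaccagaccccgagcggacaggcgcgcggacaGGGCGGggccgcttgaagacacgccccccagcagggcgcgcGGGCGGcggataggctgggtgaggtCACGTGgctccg

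The Hmgcs1 stretch holds the longer sterol element with a CCAAT box upstream of it, while in Srebf2 the shorter element is followed by a CCAAT box. The Insig1 stretch has no match to either sterol form, and no match says only that these letters are not in this window. It holds an E-box, a hexamer that SREBPs and other factors can bind.

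The commonest matches among the members were to general promoter elements. CCAAT, the core of the site of the factor NF-Y, was found for 20 of 24 members (83.3%), against 41.1% of all genes with a window and 42.5% of those that passed the filter on counts. The GC box, bound by Sp1-type factors, was found for 21 of 24 members (87.5%), against 38.2% of all genes and 66.0% of those that passed the filter. The E-box was found for 5 of 24 (20.8%), Dhcr7, Hsd17b7, Insig1, Sc5d and Scap, against 8.09% of all genes and 11.6% of those that passed. These are matches of letters and not measured sites, and no test was made of the shares.

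**Figure D1:**
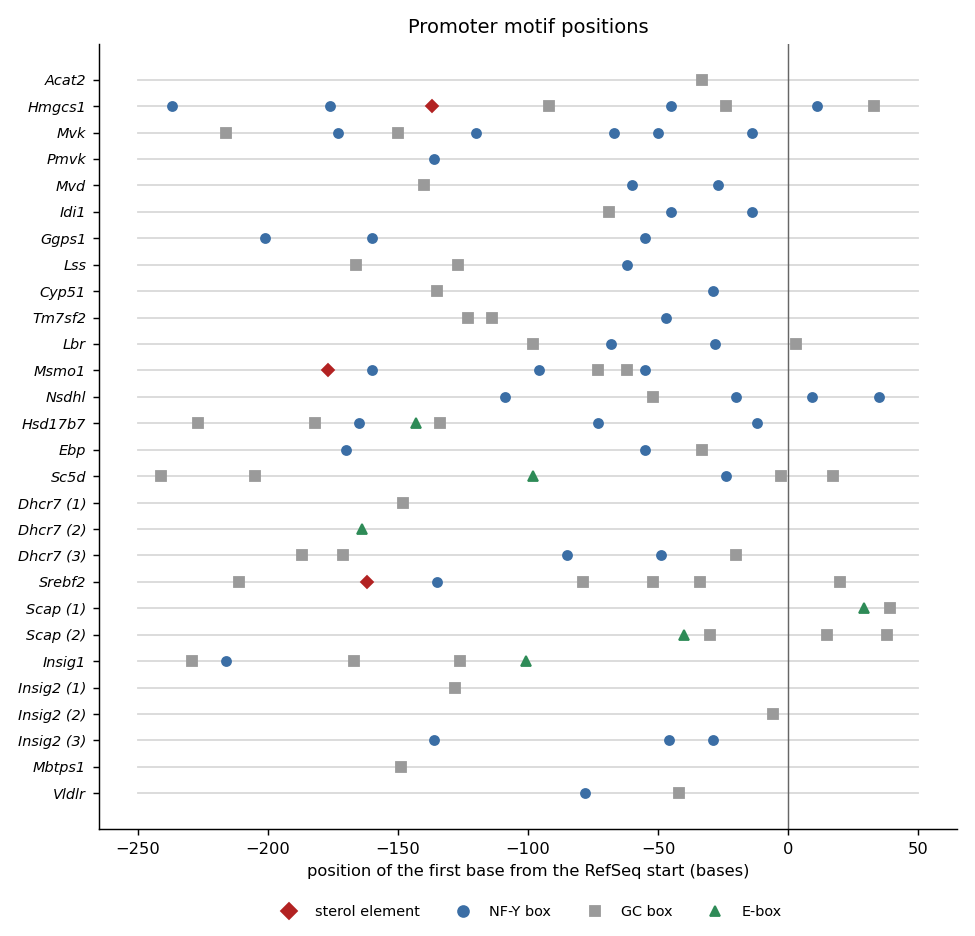
Matches to the sterol element, CCAAT box (labelled NF-Y box), GC box and E-box by distance from the start site (horizontal axis, bases) in the 28 of 31 member promoter windows that hold at least 1 match (1 row per window). The sterol element appears in 3 windows, those of Hmgcs1, Srebf2 and Msmo1, and the CCAAT box in 20.

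Total counts lay between 68053008 and 79090732 per library, and members took 0.0570% to 0.0586% of them. Member counts ran from 23 for Vldlr to 6228 for Srebf2, and 27 of 28 had at least 100 counts in every library. Dclk1, the gene named in the title, had 494, 498 and 584 counts in WT and 415, 431 and 377 in KO libraries, and did not pass the test over all genes (log2 fold change -0.37, SE 0.116, edgeR adjusted p = 0.332), so it checks the labels only weakly. All 8 macrophage markers were present at 1 CPM (counts brought to one common library total) or more, with a summed level of 20381 to 21621 CPM in WT and 12610 to 12756 CPM in KO libraries, a difference mostly in Lyz2, the macrophage lysozyme gene (means of 16349 and 7970 CPM). The fitted log2 fold change was below 0 for 6 of these markers and above 0 for 2. Itgam was higher in KO without overlap (means of 327 and 513 CPM, edgeR adjusted p = 0.344), and Cd68 was level (means of 1994 and 1993 CPM). Summed fibroblast and mesothelial markers were at 94.2 to 98.9 and 70.4 to 83.9 CPM, T and NK cell markers at 15.9 to 18.7 and 11.9 to 12.3, mast cell markers at 4.31 to 4.77 and 2.23 to 3.53, and B cell markers at 0.794 to 1.23 and 1.24 to 2.56. Dendritic cell markers were at 14.3 to 16.9 and 11.6 to 14.2 CPM and neutrophil markers at 23.5 to 26.3 and 20.5 to 22.8, with Ly6g at 0 in all libraries. The neutrophil sum was almost wholly S100a8 (means of 24.6 CPM in WT and 21.6 CPM in KO libraries). S100a9 was at 0.0196 and 0.172 CPM and Mpo at 0.0509 and 0 CPM, so the sum is no measure of neutrophils. The part of these cells and of Lyz2 in the values below was not tested, and in such bulk samples fewer cells of a type and less RNA per cell cannot be told apart. The labels' protocol speaks of an adipose type, and the adipocyte markers listed for a check are not analysed here.

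Levels of different genes were compared in FPKM, the deposited values scaled for gene length and library size. The highest member was Ebp, the sterol isomerase, with a mean of 13.1 FPKM over the 6 libraries, then Mvd, the mevalonate diphosphate decarboxylase, at 10.4, Insig1 at 9.55, Srebf2 at 9.29 and Hmgcs1, the synthase of HMG-CoA, an early intermediate, at 7.15 FPKM. The lowest were Hsd17b7 at 0.727, Tm7sf2 at 0.377 and Vldlr at 0.0579 FPKM, and 25 members reached 1 FPKM in at least 3 libraries. The order runs Ebp, Mvd, Insig1, Srebf2, Hmgcs1, Mbtps1, Insig2, Scap, Mbtps2, Nsdhl, Msmo1, Lbr, Ggps1, Sc5d, Pmvk, Cyp51, Sqle, Fdps, Mvk, Fdft1, Acat2, Dhcr7, Lss, Idi1, Stard4, Hsd17b7, Tm7sf2, Vldlr. Neighbours in it had 6-library ranges that did not overlap in 6 of 27 pairs, Ebp and Mvd, Hmgcs1 and Mbtps1, Sc5d and Pmvk, and the steps from Stard4 down through Hsd17b7 and Tm7sf2 to Vldlr. The other 21 neighbouring pairs overlapped. The genes for SREBP2, its escort SCAP, both INSIG proteins and both proteases all lay in the upper part of this order. Sqle, which oxidises squalene, and Lss, which then closes the ring system, lay in the lower part at 1.88 and 1.28 FPKM.

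**Figure D2:**
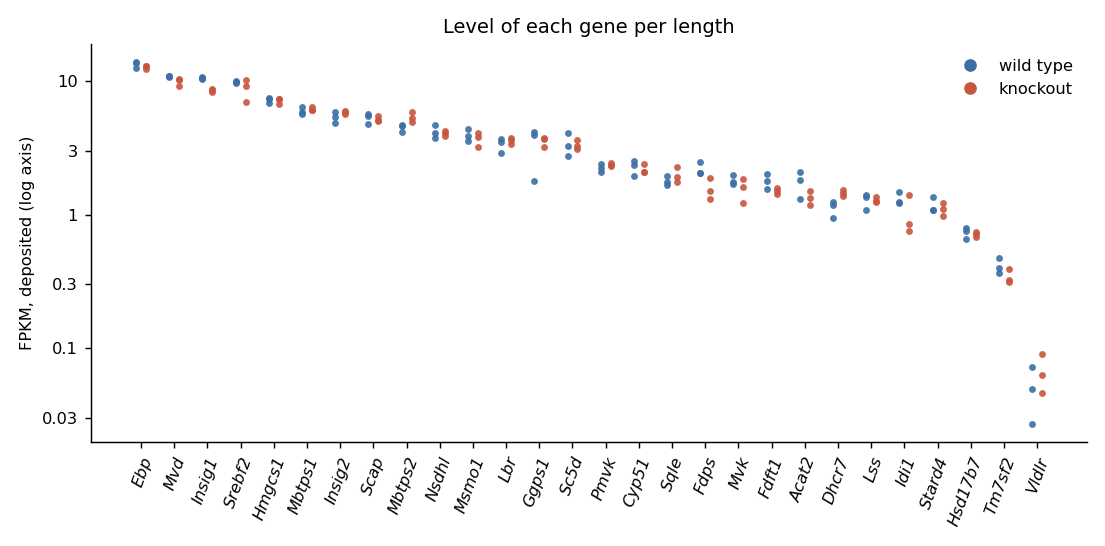
Deposited FPKM of the 28 members in each of the 6 libraries (log axis), ordered by mean and coloured by genotype. Ebp is highest at a mean of 13.1 FPKM and Vldlr lowest at 0.0579, and WT and KO points of most members lie together.

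No member passed the test between KO and WT at an adjusted p under 0.05. The test was edgeR's quasi-likelihood test with Benjamini-Hochberg adjustment over all genes, in which 11 of 16239 genes passed (0.0677%), 7 lower in KO (0.0431%) and 4 higher (0.0246%). At an unadjusted p under 0.05 there were 4 members, Insig1 and Fdps with lower and Mbtps2 and Dhcr7 with higher values in KO, against 10.4% of all tested genes in either direction and 5.71% lower. Fold changes here are KO over WT from this fit. They were below 0 on the log2 scale for 19 members and above 0 for 9, where 50.5% of all tested genes were below 0. The median log2 fold change was -0.05 over the members and -0.0019 over all tested genes, and the median size without regard to sign was 0.11 and 0.13. The groups did not overlap, each library of one lying beyond each of the other, for 5 members (17.9%), against 17.6% of all tested genes. These were Insig1, Fdps and Mvd, lower in KO, where 8.89% of all genes were lower without overlap, and Mbtps2 and Dhcr7, higher, where 8.68% of all genes were.

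**Figure D3:**
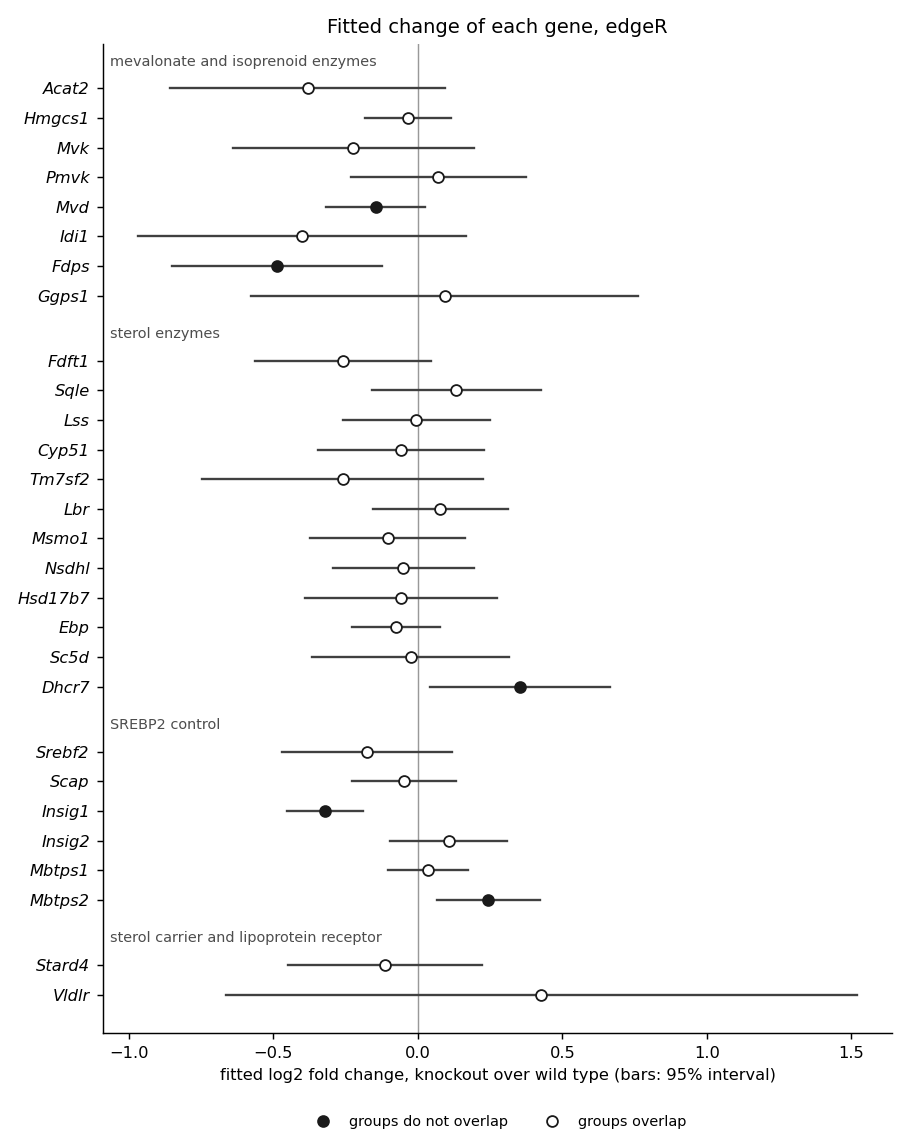
Log2 fold change of each member, KO over WT, with its 95% interval from the edgeR fit, grouped by role. Insig1, Fdps, Mbtps2 and Dhcr7 have intervals that leave out 0 before adjustment, no member passes after it, and the interval of Vldlr is the widest.

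Other settings of the test gave 0 members past the threshold except DESeq2, which gave 1, Insig1. The share of all tested genes that passed was 3.57% in DESeq2, 0.0279% with no filter on counts, 0.0554% with RLE size factors, 0.0185% with a replicate block, 0.0765% in limma on log2(FPKM + 1) or log2(FPKM + 0.1), and 0.0119% in limma with no filter. Leaving out WT replicates 1, 2 and 3 gave shares of 0.0414%, 0.142% and 0.0769%, and leaving out KO replicates 1, 2 and 3 gave 0.207%, 0.0827% and 0.0533%.

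The precision of the fit differed widely among members. Standard errors of the log2 fold change ran from 0.0564 for Insig1 to 0.466 for Vldlr, with a median of 0.125. The 95% interval lay within 1.5-fold in either direction for 20 members, and for the other 8 it reached a change of 1.5-fold or more. For Hmgcs1 the interval of the fold ran from 0.881 to 1.08, for Mbtps1 from 0.931 to 1.13 and for Scap from 0.854 to 1.10, while for Idi1 it ran from 0.511 to 1.12.

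Insig1 encodes the INSIG protein whose own gene is a target of SREBP2, and it gave the smallest p among the members. It lies on chromosome 5, 28071363 to 28078662, plus strand (ENSMUSG00000045294). Its level was 35.9, 36.5 and 37.3 CPM in WT and 28.2, 30.1 and 29.4 CPM in KO libraries. The 3 KO libraries all lay below the 3 WT libraries, with a gap several times the SD of either group (0.675 in WT and 0.951 in KO). The KO level was 0.80 times the WT level (95% interval 0.730 to 0.877; log2 fold change -0.32, SE 0.0564), with an unadjusted p of 0.000605 and an adjusted p of 0.102 in edgeR. An exact two-sided permutation test of the 3 against 3 values gave p = 0.1, the smallest this design allows. DESeq2 on the same counts gave an adjusted p of 0.0013, in a test that called 455 of 12762 genes with an adjusted p (3.57%). Of its 50-base sequences 2.17% also occur in the predicted gene Gm37784, which had at most 8 counts in any library.

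Insig2 encodes the other INSIG protein, whose gene is not a standard SREBP2 target. It was at 22.8, 21.2 and 18.7 CPM in WT and 21.9, 22.5 and 22.9 CPM in KO libraries. The KO values fell inside the upper end of the WT range or just beyond it. Its fold was 1.08 (95% interval 0.935 to 1.24, edgeR adjusted p = 0.743).

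Srebf2 itself (chromosome 15, 82147181 to 82205379, plus strand, ENSMUSG00000022463) was at 77.0, 80.6 and 79.2 CPM in WT and 72.6, 81.2 and 55.6 CPM in KO libraries. KO replicate 2 was the highest of all 6 libraries and KO replicate 3 the lowest, so the KO SD was 13.1 CPM against 1.79 in WT. The fold was 0.885 (95% interval 0.722 to 1.08, adjusted p = 0.692), and without KO replicate 3 the log2 fold change was -0.04 in place of -0.18 (adjusted p = 0.932). The low value in KO replicate 3 did not extend to most members, of which 2 had their lowest level there and 3 their highest.

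Scap, the escort, was at 46.8, 46.1 and 39.8 CPM in WT and 42.2, 45.0 and 41.4 CPM in KO libraries. All KO values lay within the WT range, with a fold of 0.968 (adjusted p = 0.890). Its exons overlap those of the opposite-strand gene 5830462I19Rik by 985 bases, and the sources do not say whether counting was strand-specific.

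The Golgi proteases that cut SREBPs in turn are encoded by Mbtps1 and Mbtps2. Mbtps1, of the first cut, was at 66.6, 69.0 and 75.6 CPM in WT and 71.5, 70.9 and 74.1 CPM in KO libraries, with all KO values inside the WT range (fold 1.03, 95% interval 0.931 to 1.13, adjusted p = 0.891). Mbtps2, of the cut within the membrane, lies on the X chromosome, 157535371 to 157598715, minus strand (ENSMUSG00000046873). Its level was 51.8, 47.6 and 52.8 CPM in WT and 55.4, 59.3 and 65.6 CPM in KO libraries. Each KO value was above each WT value, with a fold of 1.18 (95% interval 1.05 to 1.34; log2 fold change 0.24, SE 0.0765), an unadjusted p of 0.0144 and an edgeR adjusted p of 0.323. Its exons share 2867 bases (28.4% of their length) with Yy2, a gene on the same strand, so the deposited counts of both are uncertain. The sum of both genes was 54.2, 51.4 and 57.1 CPM in WT and 59.6, 64.2 and 66.0 CPM in KO libraries, again without overlap.

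**Figure D4:**
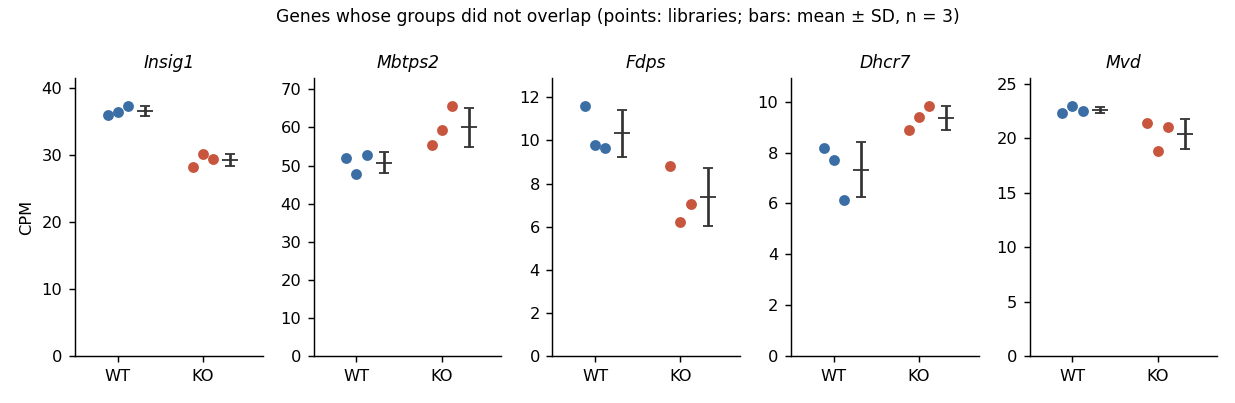
CPM in each library, with the group mean ± SD as bars, for the 5 members whose groups did not overlap. Insig1, Fdps and Mvd are lower and Mbtps2 and Dhcr7 higher in all 3 KO libraries, and none of the 5 passes after adjustment over all genes.

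Across the 6 genes of SREBP2 control, 3 were below 0 and 3 above, and the median log2 fold change was -0.0055. Insig1 and Mbtps2, the 2 of these 6 without overlap (33.3%, against 17.6% of all tested genes), lay on opposite sides. The summed level of the 6 genes was 41.8, 41.4 and 41.4 FPKM in WT and 39.2, 41.6 and 38.7 FPKM in KO libraries. Of these sums, that of KO replicate 2 lay inside the WT range.

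The 8 mevalonate and isoprenoid genes had lower fitted values in KO for 6 members (median log2 -0.19), and none passed the test. Their summed level was 29.7, 30.7 and 31.6 FPKM in WT and 29.6, 26.6 and 29.0 FPKM in KO libraries. Every KO sum lay below every WT sum, but KO replicate 1 and WT replicate 1 were nearly equal. In summed CPM the groups overlapped, at 102, 108 and 112 in WT and 104, 93.8 and 101 in KO libraries.

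Acat2 encodes the cytosolic thiolase that joins acetyl groups at the head of the route. It was at 5.94, 3.72 and 5.14 CPM in WT and 4.25, 3.79 and 3.32 CPM in KO libraries. WT replicate 2 lay below 2 of the KO libraries, and the fold was 0.768 with a wide 95% interval of 0.552 to 1.07 (adjusted p = 0.575). Of its 50-base sequences 39.1% occur in other genes, mainly Acat3 and Tcp1, so its counts are uncertain.

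Hmgcs1 (chromosome 13, 119690379 to 119708260, plus strand, ENSMUSG00000093930), whose promoter stretch above holds the longer sterol element, was at 38.5, 35.2 and 37.4 CPM in WT and 37.1, 34.3 and 37.1 CPM in KO libraries. The groups overlapped almost fully, and the fold was 0.977 (95% interval 0.881 to 1.08, adjusted p = 0.907). A stretch of 557 bases of its exons lies opposite the predicted gene Gm48342.

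The kinases that follow mevalonate are encoded by Mvk and Pmvk. Mvk was at 5.10, 5.31 and 5.98 CPM in WT and 4.82, 3.66 and 5.55 CPM in KO libraries. KO replicate 3 lay inside the WT range, and the fold was 0.856 (95% interval 0.642 to 1.14, adjusted p = 0.732). Pmvk was at 4.30 ± 0.30 and 4.51 ± 0.114 CPM (SD, n = 3 each) in WT and KO libraries, with edgeR adjusted p = 0.904.

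Mvd (chromosome 8, 122433601 to 122443422, minus strand, ENSMUSG00000006517), which makes isopentenyl diphosphate, was at 22.4, 23.0 and 22.5 CPM in WT and 21.4, 18.8 and 21.03 CPM in KO libraries. All 3 KO values lay below the tight WT range. The fold was 0.903 (95% interval 0.802 to 1.02; log2 fold change -0.15, SE 0.0737), with an unadjusted p of 0.0852 and an adjusted p of 0.551 in edgeR.

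Idi1, the isomerase of isopentenyl diphosphate, was at 4.80, 5.85 and 4.86 CPM in WT and 3.35, 2.97 and 5.43 CPM in KO libraries. KO replicate 3 lay within the WT range and the other two KO libraries below it, so that the KO values spread 1.83-fold. The fold was 0.758 (95% interval 0.511 to 1.12, adjusted p = 0.633). Other genes, among them Gm13502, share 25.3% of the 50-base sequences of Idi1, so its counts are uncertain. Gm13502 had 7, 4 and 14 counts in WT and 24, 22 and 19 in KO libraries.

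Fdps makes farnesyl diphosphate, the branch point to sterols and to protein prenylation. It lies on chromosome 3, 89093588 to 89101959, minus strand (ENSMUSG00000059743). Its level was 11.6, 9.78 and 9.63 CPM in WT and 8.83, 6.21 and 7.07 CPM in KO libraries. Each KO value was below each WT value, though KO replicate 1 and WT replicate 3 differed by less than the SD of either group (1.09 in WT and 1.34 in KO). The fold was 0.714 (95% interval 0.554 to 0.918; log2 fold change -0.49, SE 0.156), the largest decrease fitted for any member, with an unadjusted p of 0.0155 and an edgeR adjusted p of 0.334. Its exons share 1124 bases (26.7%) with the predicted same-strand gene Gm43738, which had at most 12 counts, and the sum of both was 10.3 ± 1.11 CPM in WT and 7.42 ± 1.27 CPM in KO libraries (SD, n = 3 each). Gm3571, which also has 50-base sequences in common with Fdps, had 51, 73 and 101 counts in WT and 52, 76 and 86 in KO libraries.

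Ggps1, which adds a further unit for geranylgeranyl anchors, was at 9.43, 21.03 and 21.9 CPM in WT and 19.6, 19.4 and 16.9 CPM in KO libraries. WT replicate 1 had less than any other library, and the WT values spread 2.32-fold. With all libraries the log2 fold change was 0.09 (SE 0.286, adjusted p = 0.946), and without WT replicate 1 it was -0.21 (adjusted p = 0.604), so its direction rests on that library. Its exons lie opposite those of Arid4b over 257 bases.

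Of the 12 genes of the later sterol steps, 9 were below 0 (median log2 -0.05). Only Dhcr7, 1 of the 12 (8.33%), had groups without overlap, and it was higher in KO. Over all tested genes the share was 17.6% in either direction and 8.68% higher. The summed level of the 12 genes was 37.7, 39.2 and 35.8 FPKM in WT and 35.7, 37.2 and 37.9 FPKM in KO libraries. In these sums the groups overlapped.

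Fdft1, squalene synthase, commits farnesyl diphosphate to sterols. It was at 7.16, 9.39 and 8.27 CPM in WT and 6.90, 6.56 and 7.26 CPM in KO libraries. KO replicate 3 lay just above WT replicate 1, and the others were apart (fold 0.835, 95% interval 0.676 to 1.03, adjusted p = 0.547). Its exons overlap 774 bases (18.3%) of the opposite-strand cathepsin gene Ctsb, which was at 15624 to 16924 CPM, far above Fdft1, so its counts are uncertain.

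Sqle, the epoxidase that oxidises squalene, was at 10.9, 12.2 and 10.3 CPM in WT and 10.8, 14.0 and 11.8 CPM in KO libraries, with overlapping groups (fold 1.10, 95% interval 0.896 to 1.34, adjusted p = 0.776). Lss, which closes the ring system to lanosterol, was at 16.4, 13.2 and 16.8 CPM in WT and 16.3, 14.8 and 15.2 CPM in KO libraries. All KO values of Lss lay within the WT range (fold 0.996, 95% interval 0.835 to 1.19, adjusted p = 0.993).

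Cyp51, the demethylase acting on lanosterol, was at 12.4, 11.7 and 9.66 CPM in WT and 10.3, 10.3 and 11.8 CPM in KO libraries, again within the WT range (fold 0.961, 95% interval 0.788 to 1.17, adjusted p = 0.917). The reductase step after it can be carried out by the proteins of Tm7sf2 and Lbr, the latter also a receptor for nuclear lamins. Tm7sf2 was at 1.84, 2.41 and 2.0 CPM in WT and 1.60, 1.97 and 1.64 CPM in KO libraries, where KO replicate 2 lay above WT replicate 1 (fold 0.835, 95% interval 0.596 to 1.17, adjusted p = 0.734). The exons of Tm7sf2 share 532 bases (12.1%) with the same-strand gene Vps51, so its counts are uncertain. Vps51 was far higher, at means of 38.7 CPM in WT and 36.7 CPM in KO libraries. Lbr was at 17.9 ± 2.01 CPM in WT and 18.9 ± 0.953 CPM in KO libraries (SD, n = 3 each), with edgeR adjusted p = 0.851.

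The demethylation enzymes of carbon C4, which strip methyl groups from the ring, are encoded by Msmo1, Nsdhl and Hsd17b7. Msmo1, with a shorter sterol element in its promoter window, was at 27.0 ± 2.86 and 25.1 ± 3.08 CPM (SD, n = 3 each; edgeR adjusted p = 0.816). Nsdhl was at 13.3 ± 1.48 and 12.9 ± 0.567 CPM and Hsd17b7 at 4.22 ± 0.418 and 4.05 ± 0.187 CPM in WT and KO libraries (SD, n = 3 each; adjusted p = 0.914 and 0.926 in edgeR). All 3 had fitted folds between 0.930 and 0.966, and their intervals held 1.

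Ebp was at 35.3, 36.1 and 32.2 CPM in WT and 31.8, 33.1 and 33.4 CPM in KO libraries. The KO values lay between WT replicate 3 and the other WT libraries or just under it (fold 0.949, 95% interval 0.855 to 1.05, adjusted p = 0.754). Sc5d, the desaturase that follows, was at 17.6, 22.3 and 15.0 CPM in WT and 16.8, 19.6 and 17.6 CPM in KO libraries, all KO values within the WT range (fold 0.983, adjusted p = 0.975).

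Dhcr7 carries out the last reduction to cholesterol in one of the closing branches, and its substrate is also the precursor of vitamin D. It lies on chromosome 7, 143823145 to 143848410, plus strand (ENSMUSG00000058454). Its level was 8.16, 7.71 and 6.13 CPM in WT and 8.87, 9.39 and 9.83 CPM in KO libraries. Each KO value was above each WT value, so that it stood on the opposite side from Fdps and Insig1. The fold was 1.28 (95% interval 1.03 to 1.59; log2 fold change 0.35, SE 0.133), with an unadjusted p of 0.0315 and an edgeR adjusted p of 0.410.

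Stard4 encodes a soluble carrier of cholesterol between membranes. It was at 6.78, 6.79 and 8.44 CPM in WT and 6.03, 7.53 and 6.81 CPM in KO libraries, with overlapping groups (fold 0.925, 95% interval 0.733 to 1.17, adjusted p = 0.849). Vldlr, a lipoprotein receptor, was at 0.824, 0.309 and 0.560 CPM in WT and 1.02, 0.533 and 0.724 CPM in KO libraries. With few counts per library its WT values spread 2.66-fold, the groups overlapped, and the interval of the fold ran from 0.631 to 2.86 (adjusted p = 0.815). That interval holds both a decrease and an increase of Vldlr, and no detection limit was computed.

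Read by library, the members did not shift together. WT replicates 1, 2 and 3 held the highest level of 5, 7 and 8 members and the lowest of 4, 4 and 7, and KO replicates 1, 2 and 3 held the highest of 2, 3 and 3 and the lowest of 5, 6 and 2. WT replicate 3 therefore held both more maxima and more minima than any other library. The median log2 difference of the members from their WT means was -0.02, 0.03 and 0.0064 in WT and -0.07, -0.03 and 0.0097 in KO replicates 1, 2 and 3.

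The summed FPKM of all 28 members was 110.3, 112 and 110.2 in WT and 106, 107 and 107 in KO libraries. Every KO sum lay below every WT sum, but the summed FPKM of the whole table was also lower, at 306827, 311149 and 307053 in WT and 303727, 305874 and 301419 in KO libraries. As a share of that total the members held 0.0360%, 0.0361% and 0.0359% in WT and 0.0348%, 0.0348% and 0.0354% in KO libraries, still without overlap. With Insig1 left out the sums were 99.9, 102 and 99.4 FPKM in WT and 97.3, 97.8 and 98.2 FPKM in KO libraries, still without overlap. The shares without Insig1 were 0.0326%, 0.0328% and 0.0324% in WT and 0.0320%, 0.0320% and 0.0326% in KO libraries, and KO replicate 3 then lay inside the WT range. Summed CPM, which weights long genes more, was 581, 593 and 589 in WT and 565, 581 and 570 in KO libraries, where the highest KO sum and the lowest WT sum overlapped. The sums were therefore separate in FPKM with and without Insig1, and not separate in CPM. As a share of the table, with Lyz2 in its total, they were separate with Insig1 only. Lyz2 had means of 11112.5 FPKM in WT and 5462.8 FPKM in KO libraries. That gap is larger than most gaps between a WT and a KO table total. The lower KO totals, and the overlap of the shares without Insig1, therefore cannot be read apart from Lyz2. Shares of a total without Lyz2 were not computed, so its part in these shares was not tested.

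**Figure D5:**
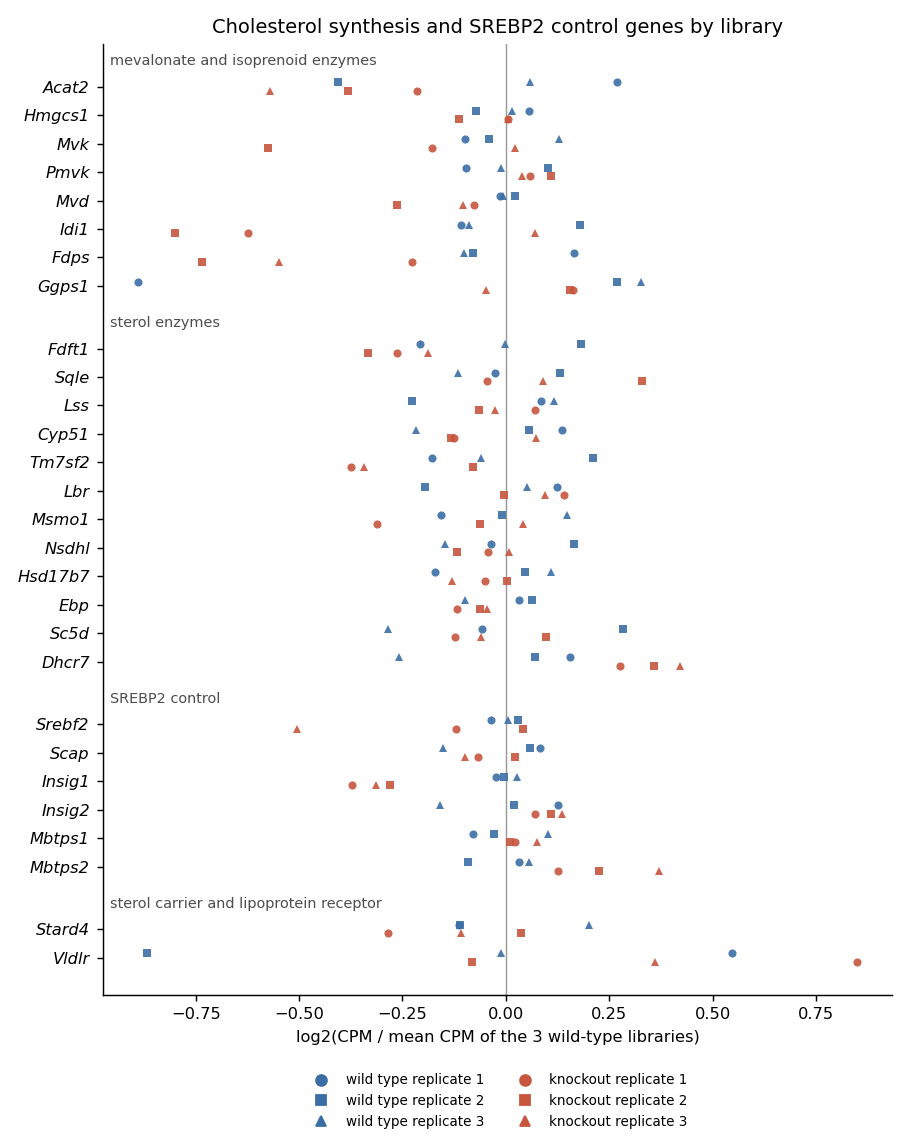
Log2 ratio of each library's CPM to the mean of the 3 WT libraries (horizontal axis) for each member (rows, ordered by role), with colour for genotype and symbol for replicate. Insig1 is lower in all 3 KO libraries, Ggps1 stands out in WT replicate 1 and Srebf2 in KO replicate 3, and no library holds a uniform shift.

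Lists of neighbouring pathways were examined in the same fit, and no gene of any of them passed over all genes in edgeR. Among 17 tested genes of SREBP1 and fatty acid synthesis, 10 were below 0 (median log2 -0.06) and 3 did not overlap between groups, 2 lower and 1 higher, a share (17.6%) equal to that of all tested genes (17.6%). Scd1, the desaturase that makes oleic acid, was at 4.78, 5.23 and 4.21 CPM in WT and 3.07, 2.64 and 2.41 CPM in KO libraries. Each KO value was below each WT value (fold 0.571; log2 fold change -0.81, SE 0.166; adjusted p = 0.135), and DESeq2 gave an adjusted p of 0.0065. Fasn, fatty acid synthase, was at 14.4, 13.2 and 15.2 CPM in WT and 11.4, 11.3 and 11.1 CPM in KO libraries, also without overlap (fold 0.791; log2 fold change -0.34, SE 0.0878; adjusted p = 0.221).

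Of 8 tested genes of oxysterol and sterol ester handling, 5 were above 0 and 3 below, with log2 fold changes from -0.99 to 0.79 around a median of 0.10. The groups did not overlap for 4 of them, 1 lower and 3 higher, against 17.6% of all tested genes. Nceh1, which frees cholesterol from stored esters, was at 401, 403 and 405 CPM in WT and 464, 462 and 471 CPM in KO libraries. The spread within each group was far smaller than the gap between them, yet the fold was 1.15 (log2 fold change 0.21, SE 0.0291) and the edgeR adjusted p 0.0756. DESeq2 gave it an adjusted p of 4.3e-05. Lipa, the lysosomal acid lipase that frees cholesterol from lipoproteins, was at 2393 ± 51.2 and 2572 ± 29.7 CPM in WT and KO libraries (SD, n = 3 each; edgeR adjusted p = 0.144).

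Of 12 genes that use isoprenoids, 6 were below 0 (median -0.0019), and Rabggtb, a subunit of the prenyl transferase of Rab proteins, was at 30.2 ± 1.24 and 26.1 ± 1.58 CPM (SD, n = 3 each; edgeR adjusted p = 0.358). Nus1, of dolichol synthesis, was at 269 ± 6.95 and 284 ± 5.62 CPM (SD, n = 3 each; edgeR adjusted p = 0.538). Of 12 genes of sterol-regulated degradation in the endoplasmic reticulum, 7 were below 0 (median -0.02). Nploc4 was at 153 ± 4.98 and 142 ± 2.78 CPM and Ube2g2 at 33.4 ± 7.44 and 51.1 ± 18.9 CPM (SD, n = 3 each; edgeR adjusted p = 0.477 and 0.529).

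Of 13 genes of SREBP transport and turnover, 8 were below 0 (median -0.02). Sec24b, a cargo adaptor of COPII vesicles, was at 84.2 ± 2.49 and 78.6 ± 0.639 CPM, and its relative Sec24c at 137 ± 4.18 and 129 ± 0.974 CPM (SD, n = 3 each; edgeR adjusted p = 0.499 and 0.544). Both were lower in all 3 KO libraries than in any WT library, the 2 genes of this list without overlap (15.4%, against 17.6% of all tested genes in either direction and 8.89% lower). Of 10 genes of intracellular sterol transport, 5 were below 0 (median 0.0028). Npc1, which exports cholesterol from lysosomes, was at 927 ± 9.42 and 985 ± 18.8 CPM, and Gramd1c at 0.403 ± 0.119 and 0.791 ± 0.331 CPM (SD, n = 3 each; edgeR adjusted p = 0.297 and 0.544).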

How the data were processed

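Each library has both a count and an FPKM value per gene, per the file headers. The deposited counts are whole numbers. Some low ones fall in steps of 4, such as Ch25h at 16, 8 and 16 in WT and 4, 0 and 16 in KO libraries, and others do not. A single count may therefore not be a single read. Deposited FPKM values adjust for gene length and library size, as their column names in the file headers say. The submitters' processing notes name HISAT2 2.0. The sources name no counting tool, strand setting, annotation or build. Of the table's gene IDs, 27169 were found in GENCODE M21, where 24511 (25 of 28 members, not Tm7sf2, Scap and Lbr) had the same coordinates, so GRCm38 was taken as the build of the deposited coordinates. Another 12 value columns, of no sample in the labels, were left unused.

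Counts were filtered by filterByExpr, scaled by TMM and tested two-sided by edgeR 4.0.16 (R 4.3.3) on genotype alone. P-values were adjusted by Benjamini-Hochberg over 16239 genes and called at 0.05. Intervals are at the 95% level. CPM use TMM-scaled library sizes. With counts taken as single reads, same-group libraries differed beyond sampling noise (chi-square over its degrees of freedom, 36.7 to 42.8), so none was a copy of another. This measure does not tell repeat preparations from separate animals. Alternatives used DESeq2 1.42.0 and limma 3.58.1 on log2(FPKM + 1). Members and lists were chosen with earlier results of these data known, and the motifs after promoter letters were seen. Values in every library were set out for the 12 members of smallest unadjusted p and for Srebf2, Scap, Insig1, Insig2, Mbtps1, Mbtps2, Stard4, Hmgcs1, Sqle, Lss, Cyp51 and Vldlr, and additionally for Ebp, Ggps1 and Sc5d after their values were seen; of each pathway list, genes past the threshold or, with none, the 2 of smallest p were named. Shared reads were sought as overlapping exons and shared 50-base sequences in GENCODE M21.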

Additional observations from a re-analysis of the deposited data

How the results depend on the processing

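In every alternative in which they were tested, 19 of 28 members kept the sign of their log2 fold change (13 alternatives, but 11 for Hsd17b7 and Tm7sf2 and 10 for Vldlr, which low-value filters left out of some), and 1 of 357 member values passed the threshold, Insig1 in DESeq2 (-0.32, adjusted p 0.0013). Its log2 fold change lay between -0.35 and -0.28 in all alternatives and its adjusted p went up to 0.321. Fdps lay between -0.64 and -0.31, Mbtps2 between 0.18 and 0.30 and Dhcr7 between 0.21 and 0.44. Signs turned in 18 values of 9 members. With 1 library left out, Hmgcs1 ran from -0.069 to 0.00077 (positive without KO replicate 2), Cyp51 from -0.16 to 0.015, Mbtps1 from -0.0027 to 0.089 and Ggps1 from -0.21 to 0.29 (all 3 turned without WT replicate 1), Nsdhl from -0.12 to 0.040 and Lbr from -0.011 to 0.14 (WT replicate 2), Stard4 from -0.20 to 0.00045 (WT replicate 3), Sc5d from -0.15 to 0.14 (WT replicate 2 and KO replicate 1), and Lss from -0.11 to 0.057 (WT replicates 1 and 3, KO replicates 2 and 3). With limma, Lss was at 0.0052 (FPKM + 1, with and without a filter) and 0.011 (FPKM + 0.1), and Sc5d at 0.0021 (FPKM + 0.1).

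Genes called over the table numbered 11, against 7 with no filter, 455 in DESeq2, 8 in limma with either pseudocount, 3 in limma with no filter, and 7 to 35 when 1 library was left out: 7 without WT replicate 1, 24 without WT replicate 2 and 35 without KO replicate 1. Members called were 0 in all alternatives but DESeq2, with 1. Members without overlap numbered 5, and 5 to 10 with 1 library left out, where fewer samples make separation easier: 10, 9 and 8 without WT replicates 1, 2 and 3, and 8 without KO replicate 3. The share of all tested genes without overlap was not computed with 1 library left out, so those member counts have no background to be set against. The members' median lay between -0.08 and -0.04 without 1 library. DESeq2 called 1 gene each, Scd1 and Nceh1, in the SREBP1 and oxysterol lists. Without WT replicate 3 Elovl1 and without KO replicate 1 Mid1ip1 passed in the SREBP1 list (0 to 1 called). List medians without 1 library were -0.031 to 0.0085 for isoprenoid use, -0.050 to -0.0092 for degradation, -0.035 to 0.011 for SREBP transport and -0.016 to 0.029 for sterol transport.

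Any pairing of the samples by replicate number was weak. Same-numbered libraries' deviations from their group means correlated at 0.040, 0.050 and 0.015. Those of differently numbered libraries correlated at -0.054 to 0.011, so the same-numbered values were the higher ones, though all were small. With the replicate number as a block, 3 genes and 0 members were called, the members' median was -0.05, that of the SREBP1 list -0.14, Lss was at 0.0012 and the adjusted p of Insig1 was 0.246. Counts were lowest for Vldlr, with 23 in its lowest library, and next for Tm7sf2, with 120.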
